A study of Mus musculus with 4 samples.

Results

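The SLAM family is described here across cultured mouse peritoneal macrophages through 6 of its receptors, Slamf7, Slamf8, Slamf9, Cd84, Cd48 and Ly9. They were taken by symbol from a table of read counts with 54532 genes, were selected on their read counts in these same libraries, and all 6 passed the filter on low counts that kept 13715 genes (at least 10 reads in at least 1 library). The cells came from the peritoneal fluid of wild-type mice, which the study's methods describe as BALB/c animals injected with thioglycollate broth to draw macrophages into the cavity. 1 culture was sequenced for each of 4 conditions: normal medium with DMSO, normal medium with 10 µM CH223191, 30% 4T1-CM with DMSO, and 30% 4T1-CM with 10 µM CH223191. 4T1-CM is medium in which cells of the mouse breast cancer line 4T1 had grown, CH223191 is an antagonist of the aryl hydrocarbon receptor (AHR), and DMSO is its solvent. Per the study's methods, the inhibitor or DMSO was added first and was kept in the medium afterwards. The number of mice behind each culture is not given in the labels.

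SLAM receptors are immunoglobulin-like proteins on the surface of blood cells. Most bind a copy of themselves on a neighboring cell, while CD48, which is held in the membrane by a lipid anchor, binds CD244 and CD2. The tails of SLAMF7, CD84 and LY9 carry tyrosine motifs that recruit small adaptors of the SAP family, which pass signals to Src kinases or block inhibitory phosphatases. SLAMF8 and SLAMF9 have short tails without such motifs. In macrophages, SLAMF7 has been linked to phagocytosis of blood-derived tumor cells and SLAMF8 to restraint of the NADPH oxidase.

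Levels are given as CPM, a gene's reads relative to the size of its library after TMM scaling, and as RPKM, CPM per kilobase of gene length, where different receptors are compared. A log2 ratio carries a 95% interval for counting error alone. With 1 library per condition there is no measure of how much cultures vary, and no test was made. Fewer macrophages and less RNA per macrophage cannot be told apart in these bulk cultures.

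With DMSO, Slamf8 and Slamf9 had the largest log2 ratios of 4T1-CM to normal medium, in either direction, among these 6 receptors. They lie at opposite ends of a stretch of chromosome 1, so the sequences at their start sites are shown. Both windows run from 250 bases before to 50 bases after the start site in the RefSeq annotation of GRCm38.p6, which represents C57BL/6 and not BALB/c. The Slamf8 window is chr1:172590519-172590818 on the minus strand, and that of Slamf9 is chr1:172475110-172475409 on the plus strand. Capitals mark matches, on either strand, to GAGGAA, a core of PU.1 sites, or to GAAANNGAA, a core of interferon response elements.
Slamf8: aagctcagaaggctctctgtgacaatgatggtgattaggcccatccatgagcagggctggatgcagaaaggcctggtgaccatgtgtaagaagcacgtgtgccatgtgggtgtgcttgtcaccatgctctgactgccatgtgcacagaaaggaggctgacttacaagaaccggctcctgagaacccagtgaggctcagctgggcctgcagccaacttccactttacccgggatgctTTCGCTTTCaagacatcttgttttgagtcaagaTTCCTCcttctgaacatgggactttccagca
Slamf9: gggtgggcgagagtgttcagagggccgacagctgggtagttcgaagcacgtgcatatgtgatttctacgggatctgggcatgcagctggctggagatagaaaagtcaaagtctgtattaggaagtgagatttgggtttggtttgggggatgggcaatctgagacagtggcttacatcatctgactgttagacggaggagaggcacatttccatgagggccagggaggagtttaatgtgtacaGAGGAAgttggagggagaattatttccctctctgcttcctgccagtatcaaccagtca
In the Slamf8 window the interferon core begins 14 bases before the start site and GAGGAA 19 bases after it, both on the opposite strand. In the Slamf9 window GAGGAA begins 8 bases before the start site. GCGTG, the core bound by AHR, and TTCNNNGAA, the core bound by STAT proteins, were found in neither window. No match overlapped another. Among 32851 RefSeq promoter windows of 300 bases, 28.3% held GAGGAA, 8.56% GAAANNGAA, 32.4% GCGTG and 8.30% TTCNNNGAA. Of the 6 receptors, 5 had a window in this set. The Cd84 window held GAAANNGAA at 2 places and GAGGAA at 1, and those of Slamf7 and Cd48 held none of the 4 cores. The start of Slamf7 in RefSeq lies inside its span in GENCODE M21, so its window is not at the outermost start.

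Total counts ran from 15535405 to 17557127 reads per library. All 8 macrophage markers were detected in each library, and 5 of 8 were at least 2-fold higher in 4T1-CM with DMSO (12.2% of all genes kept were) and 4 of 8 with CH223191 (12%). Adgre1, which encodes F4/80, stood at 257 and 246 CPM without 4T1-CM and at 1020 and 872 CPM with it. Since SLAM receptors are also made by lymphocytes and other blood cells, markers of those cells were summed. The reads per library were 0 to 6 for 5 NK cell genes, 7 to 18 for 6 T cell genes (all of Lck), 1 to 5 for 3 plasma cell genes, 0 to 3 for 5 mast cell genes, 2 to 8 for 5 neutrophil genes, 15 to 42 for 5 dendritic cell genes and 0 to 4 for 4 epithelial genes of 4T1. The 6 B cell genes had 322 and 546 reads in normal medium and 139 and 86 in 4T1-CM. Of these Ighm gave 317, 540, 128 and 67, while Cd79a and Cd79b had most reads in 4T1-CM with CH223191, at 6 and 9. The 4 eosinophil genes had 259 and 229, then 108 and 94, of which Siglecf gave nearly all. The part of these cells in the SLAM values was not tested.

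Slamf8 was much lower in 4T1-CM. It had 1262 reads (79.2 CPM) in normal medium with DMSO and 1367 (86.0 CPM) in normal medium with CH223191, against 200 (11.4 CPM) in 4T1-CM with DMSO and 167 (10.3 CPM) in 4T1-CM with CH223191. Both libraries with 4T1-CM thus lay far below both libraries with normal medium. The log2 ratio of 4T1-CM to normal medium was -2.79 (95% interval -3.02 to -2.58) with DMSO, a 6.91-fold lower level. With CH223191 it was -3.06 (-3.30 to -2.83), an 8.34-fold lower level. Among the 8323 genes that averaged 10 CPM or more, Slamf8 ranked 5 from the lowest ratio with DMSO and 3 with CH223191. Of all genes kept, 0.5% and 0.4% had a lower ratio than Slamf8. Between CH223191 and DMSO it differed little, with a log2 ratio to DMSO of 0.12 (0.01 to 0.23) in normal medium, against -0.15 (-0.46 to 0.15) in 4T1-CM.

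Slamf9, the other receptor with a short tail, was higher in 4T1-CM. It had 105 reads (6.59 CPM) in normal medium with DMSO, 159 (10.0 CPM) in normal medium with CH223191, 401 (22.9 CPM) in 4T1-CM with DMSO and 283 (17.4 CPM) in 4T1-CM with CH223191. Both libraries with 4T1-CM lay above both with normal medium, and the 4 counting intervals did not overlap. The log2 ratio of 4T1-CM to normal medium was 1.79 (1.48 to 2.12) with DMSO and 0.80 (0.52 to 1.09) with CH223191. The ratio with CH223191 was lower than that with DMSO by 0.99 (-1.41 to -0.58 for the difference of the log2 ratios, counting error only). The same difference was -0.28 (-0.43 to -0.13) for Cd48, -0.20 (-0.31 to -0.09) for Ly9 and 0.20 (0.03 to 0.38) for Slamf7. Its interval spanned 0 for Slamf8 (-0.59 to 0.05) and Cd84 (-0.09 to 0.01). For Slamf9, CH223191 against DMSO gave 0.60 (0.24 to 0.97) in normal medium, against -0.39 (-0.62 to -0.17) in 4T1-CM. The 2 Slamf9 levels with CH223191 thus lay between the 2 with DMSO. Slamf9 is short, at 1313 bases, and the 326 protein-coding genes within 20% of that length had a median log2 ratio of CH223191 to DMSO of 0.20 in normal medium, against -0.02 in 4T1-CM. Set against those medians, Slamf9 stood at 0.40 (normal medium) and -0.37 (4T1-CM). The same correction gave 2.05 with DMSO and 1.25 with CH223191 for 4T1-CM against normal medium, so that Slamf9 then passed 2-fold in both. The differences of log2 ratios given above, and their intervals, do not include this correction. With it, the ratios with DMSO and with CH223191 lay close together for Cd48, at 0.17 and 0.09. They were -0.18 and -0.33 for Ly9 and 0.59 and 0.77 for Slamf7.

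Slamf7 was moderately higher in 4T1-CM. It had 911 reads (57.2 CPM) in normal medium with DMSO, 822 (51.7 CPM) in normal medium with CH223191, 1448 (82.7 CPM) in 4T1-CM with DMSO and 1400 (86.2 CPM) in 4T1-CM with CH223191. Both libraries with 4T1-CM lay above both with normal medium. The log2 ratio was 0.53 (0.41 to 0.65) with DMSO and 0.74 (0.61 to 0.86) with CH223191, which is 1.45-fold and 1.67-fold. Of the genes kept, 21.6% had a higher ratio than Slamf7 with DMSO and 16.9% with CH223191. With CH223191 it had -0.14 (-0.28 to -0.01) in normal medium, against 0.06 (-0.05 to 0.17) in 4T1-CM.

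**Figure D1:**
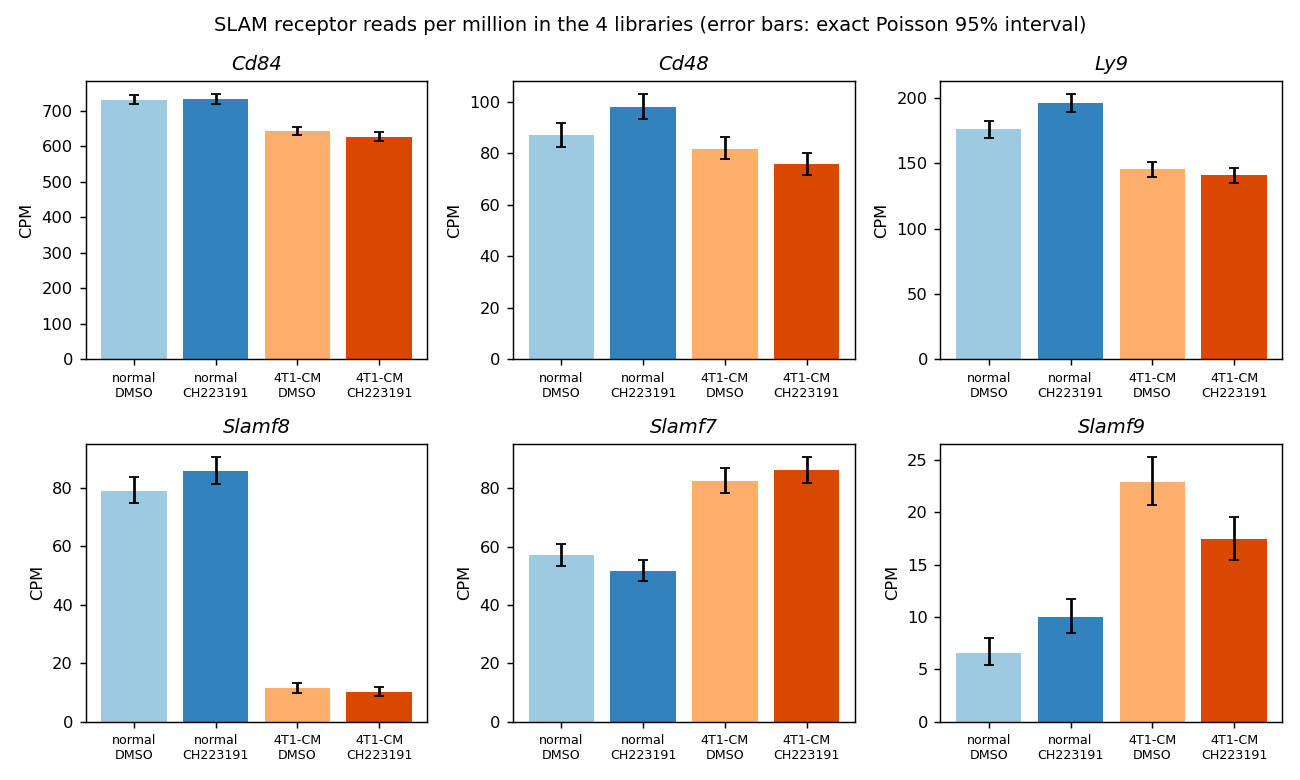
CPM (vertical axes, from 0) of each of the 6 SLAM receptors in the 4 libraries, 1 bar per library, with exact Poisson 95% intervals for counting error as error bars. Slamf8 stood at 79.2 and 86.0 CPM in normal medium and at 11.4 and 10.3 CPM in 4T1-CM, Slamf7 and Slamf9 were higher in 4T1-CM, and the bars of Cd84 lay between 628 and 733 CPM.

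The remaining receptors were close to level or slightly lower in 4T1-CM. Cd84 was the most abundant, with 11663, 11662, 11264 and 10196 reads in normal medium with DMSO, normal medium with CH223191, 4T1-CM with DMSO and 4T1-CM with CH223191. Its log2 ratio to normal medium was -0.19 (-0.22 to -0.15) with DMSO and -0.22 (-0.26 to -0.19) with CH223191. These intervals are narrow because the gene is deeply covered, and they say nothing of the spread between cultures or of the choice of scaling. Between CH223191 and DMSO it had 0.00 (-0.03 to 0.04) in normal medium, against -0.04 (-0.07 to 0.00) in 4T1-CM.

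Ly9, which binds itself and is best known from lymphocytes, had 2809 reads (176 CPM), 3119 (196 CPM), 2547 (146 CPM) and 2289 (141 CPM) in the same order. Its levels in 4T1-CM lay below those in normal medium. Its log2 ratio to normal medium was -0.28 (-0.35 to -0.20) with DMSO and -0.48 (-0.56 to -0.40) with CH223191, a 1.21-fold and a 1.39-fold lower level. CH223191 against DMSO gave 0.15 (0.08 to 0.23) without 4T1-CM and -0.05 (-0.13 to 0.04) with it. Ly9 lies on the minus strand within the span of Cd244a on the plus strand, but their exons share 0 bases in the GENCODE M21 annotation.

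Cd48 had 1388 reads (87.1 CPM), 1557 (97.9 CPM), 1432 (81.8 CPM) and 1229 (75.7 CPM) in the same order. The level in 4T1-CM with DMSO overlapped that in normal medium with DMSO within counting error, at a log2 ratio of -0.09 (-0.20 to 0.02), while with CH223191 the ratio was -0.37 (-0.48 to -0.26). CH223191 gave 0.17 (0.06 to 0.27) in normal medium, against -0.11 (-0.22 to 0.00) in 4T1-CM. Cd48 is the shortest of the receptors at 1189 bases, and the 252 protein-coding genes of like length had a median of 0.24 for CH223191 in normal medium, and of -0.26 with DMSO and -0.46 with CH223191 for 4T1-CM. Set against these medians, Cd48 turned to -0.07, 0.17 and 0.09, so the direction of these ratios depends on the correction.

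Against the genes as a whole, 1 of 6 receptors (Slamf9) was at least 2-fold higher in 4T1-CM with DMSO, where 12.2% of the 13715 genes were, and 1 (Slamf8) was at least 2-fold lower, where 6.11% were. With CH223191, 0 of 6 were at least 2-fold higher beside 12% of genes, and 1, again Slamf8, was lower beside 7.86%. Between CH223191 and DMSO, 0 of 6 passed 2-fold in either direction, beside 4.84% of genes higher and 3.31% lower in normal medium and 2.75% higher and 2.66% lower in 4T1-CM. Over the 6 receptors the median log2 ratio was -0.14 and -0.30 with 4T1-CM and 0.14 and -0.08 with CH223191, beside medians of 0.00 to 0.02 over all genes. Since the receptors were picked with these ratios known, the counts describe them and nothing more.

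**Figure D2:**
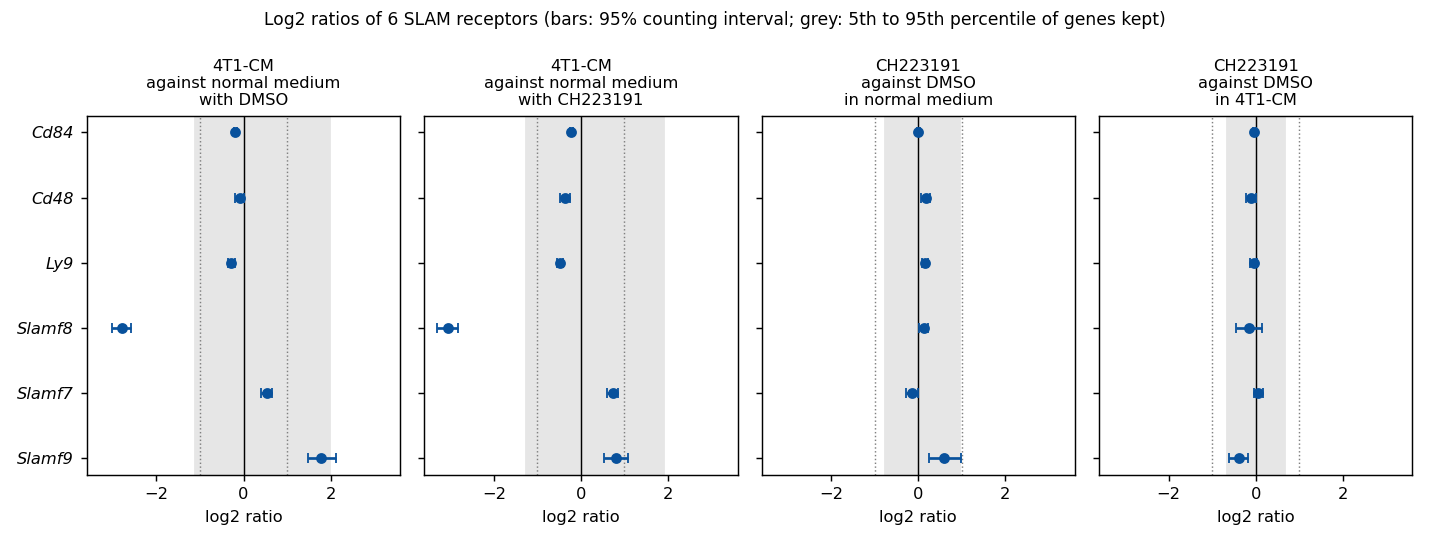
Log2 ratios (horizontal axes) of the 6 SLAM receptors in the 4 comparisons, 1 panel each, with 95% counting intervals as bars, dotted lines at 2-fold, and grey bands from the 5th to the 95th percentile of the 13715 genes kept. Slamf8 lay left of the band in both comparisons of 4T1-CM with normal medium (-2.79 and -3.06), and all 6 receptors lay within 2-fold in both comparisons of CH223191 with DMSO.

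Per gene length the receptors fell into a clear order. In normal medium with DMSO it ran Cd84 (117 RPKM), Cd48 (73.2), Ly9 (53.3), Slamf8 (25.7), Slamf7 (12.5) and Slamf9 (5.02 RPKM), and no neighbors in this order had overlapping counting intervals. The order was the same in normal medium with CH223191, from 117 RPKM for Cd84 to 7.62 RPKM for Slamf9. In 4T1-CM with DMSO the leading receptors kept their places, with Cd84 at 103, Cd48 at 68.8 and Ly9 at 44.0 RPKM. Slamf7 (18.1 RPKM, interval 17.2 to 19.0) and Slamf9 (17.5, interval 15.8 to 19.2) came next and were not distinguishable from each other at this depth. Slamf8 was last at 3.71 RPKM. In 4T1-CM with CH223191, Slamf7 stood at 18.8 RPKM, Slamf9 at 13.3 and Slamf8 at 3.34.

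The make-up of the family changed mainly among its 3 least abundant receptors. Of the summed RPKM of the 6, Slamf8 made up 8.98% and 9.14% in normal medium with DMSO and CH223191, and 1.46% and 1.38% in 4T1-CM. Slamf9 made up 1.75% and 2.49% in normal medium and 6.85% and 5.49% in 4T1-CM. Slamf7 made up 4.36% and 3.70%, then 7.10% and 7.79%. The share of Cd84 stayed between 38.3% and 41.4%, that of Cd48 between 25.6% and 27.0%, and that of Ly9 between 17.3% and 19.4%. Summed over the 6, the level was 286 and 305 RPKM in normal medium and 255 and 242 RPKM in 4T1-CM.

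**Figure D3:**
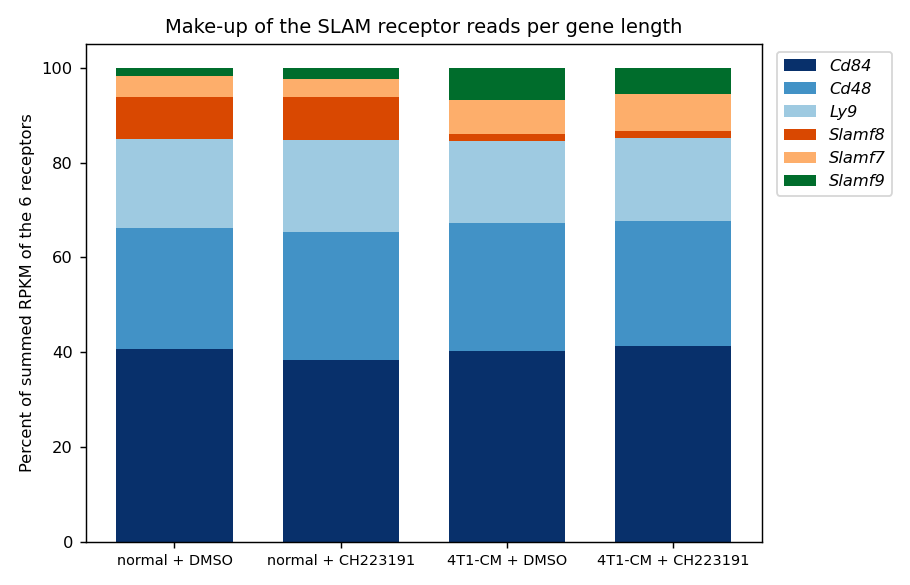
Percent of the summed RPKM of the 6 SLAM receptors (vertical axis) taken by each receptor, 1 stacked bar per library. The Slamf8 band took 8.98% and 9.14% of the normal medium bars but 1.46% and 1.38% of those with 4T1-CM, while Slamf7 and Slamf9 widened and Cd84, Cd48 and Ly9 kept similar shares.

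Of the other receptors of the family, Slamf6, which binds itself on lymphocytes, was nearly absent in normal medium, with 5 reads (DMSO) and 6 (CH223191), and had 140 and 113 reads in 4T1-CM. Its log2 ratio was 4.55 (3.42 to 6.32) with DMSO and 4.10 (3.04 to 5.68) with CH223191. Even so its level in 4T1-CM stayed low, at 0.738 and 0.642 RPKM, under the 3.34 RPKM of the lowest of the 6 receptors there. Cd244a, the receptor for CD48, had 3 to 4 reads in each library, and Slamf1 had 0 or 1, where a count of 0 allows up to 3 reads. For Cd2, the other partner of CD48, there were 14, 23, 14 and 3 reads.

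Of the SAP family adaptors, Sh2d1b1, which encodes EAT-2A, was lower in 4T1-CM, with 69 and 70 reads in normal medium and 14 and 17 reads in 4T1-CM with DMSO and CH223191. The log2 ratio was -2.39 (-3.38 to -1.59) and -2.04 (-2.93 to -1.29). Sh2d1a, which encodes SAP itself, and Sh2d1b2 had 0 reads in all 4 libraries, so no transcript of either was detectable at this depth.

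Of 15 kinases, phosphatases and effectors, 1 was at least 2-fold higher in 4T1-CM and 0 were lower, both with DMSO and with CH223191. Over all genes kept, 12.2% and 12% were higher and 6.11% and 7.86% lower, and 1 of 15 is not far from the former. That gene was Fgr, a Src family kinase of myeloid cells, with 358 and 508 reads in normal medium and 1178 and 1205 in 4T1-CM, and log2 ratios of 1.58 (1.41 to 1.76) and 1.21 (1.06 to 1.37). Fyn, the kinase that SAP recruits, had -0.65 (-0.81 to -0.48) and -0.32 (-0.48 to -0.16). Inpp5d, which encodes the inositol phosphatase SHIP-1, had 0.39 (0.31 to 0.46) and 0.35 (0.27 to 0.42). The median of the 15 was -0.03 with DMSO and -0.02 with CH223191, beside 0.01 and 0.02 over all genes. With CH223191 against DMSO, 0 of the 15 passed 2-fold in either medium. Beside them, 4.84% of all genes kept were higher and 3.31% lower in normal medium, and 2.75% and 2.66% in 4T1-CM. A count of 0 among 15 is thus near these shares.

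Of 6 partners of SLAMF7 in phagocytosis, 0 passed 2-fold in 4T1-CM with DMSO, where their log2 ratios ran from -0.74 to 0.91 and where 12.2% of all genes were higher and 6.11% lower. With CH223191, where 12% and 7.86% were, 1 of the 6 was higher and 1 lower. Cd47, the "do not eat" ligand of SIRPA, stood at 1.14 (1.06 to 1.22), and Tyrobp, the adaptor DAP12, at -1.61 (-1.65 to -1.56). Tyrobp had 10225 and 17646 reads in normal medium and 6714 and 5919 in 4T1-CM, so the larger ratio goes with its higher count in normal medium with CH223191. Itgam and Itgb2, the chains of the integrin Mac-1, had 0.74 (0.67 to 0.81) and -0.37 (-0.39 to -0.35) with DMSO. Among 10 genes of the class III PI3 kinase complex and the phagocyte NADPH oxidase, 1 was at least 2-fold higher in each comparison with 4T1-CM and 0 were lower, a share of higher genes near the 12.2% and 12% over all genes. It was Cybb, the catalytic subunit of the oxidase, with 11280 and 11582 reads in normal medium and 52998 and 47261 in 4T1-CM, a 4.28-fold higher level with DMSO and a 3.99-fold higher level with CH223191. Cybb and Slamf8 thus lay on opposite sides in both comparisons. Between CH223191 and DMSO these 2 lists showed 0 genes past 2-fold in either medium. Over all genes kept, 4.84% were higher and 3.31% lower in normal medium, and 2.75% and 2.66% in 4T1-CM. With lists this short, nothing is read from a count of 0.

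**Figure D4:**
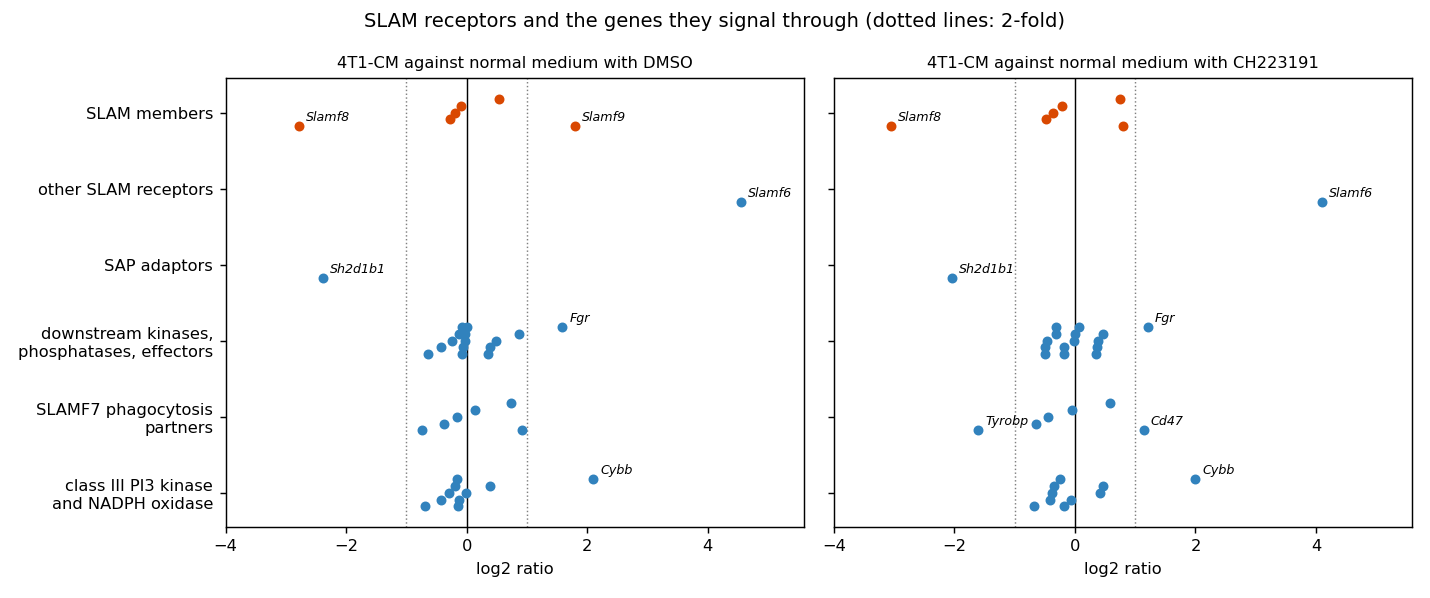
Log2 ratios (horizontal axes) of 4T1-CM to normal medium with DMSO (left) and with CH223191 (right) for the 6 SLAM receptors and for genes kept of 5 lists of related genes, 1 point per gene, with small vertical offsets only to separate points and dotted lines at 2-fold. Slamf8 and Sh2d1b1 lay to the left in both panels and Slamf6, Cybb and Fgr to the right.

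On chromosome 1 the receptors form 2 groups in GRCm38. Ly9, Slamf7, Cd48 and Cd84 lie within 302 kb, between 171588624 and 171890718. Slamf9 and Slamf8 lie at the ends of 115 kb, between 172475358 and 172590568. In the first interval, 2 of 11 other annotated genes were kept, and 1, the pseudogene Tma7-ps, was at least 2-fold lower in both comparisons with 4T1-CM. In the second, 5 of 6 others were kept, and 2 were at least 2-fold lower in both while 0 were higher in both. Over all genes kept, 6.11% were lower with DMSO and 7.86% with CH223191, and with so few neighbors nothing is read from these counts. One was Vsig8, with 61 and 135 reads in normal medium and 7 and 17 in 4T1-CM, which ends 18.0 kb from Slamf8 on the other strand. The other was 4933439K11Rik, a noncoding gene that overlaps Vsig8 by 2192 bases on the opposite strand, with 40 and 60 reads and then 12 and 20, so reads of this pair may be mixed if strand was not used in counting. Cfap45 passed 2-fold with CH223191 alone, at -1.17 against -0.06 with DMSO. Tagln2, between them and Slamf9, was abundant and near level, with log2 ratios of 0.20 and -0.37. Of the 50-base words in transcripts of each receptor, 0% of Slamf8, Slamf9, Cd48 and Ly9, 1.71% of Cd84 and 7.14% of Slamf7 also occurred in another gene.

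The genes with the pattern nearest to each receptor over the 4 libraries, by Euclidean distance between centered log2 CPM among 8129 protein-coding genes, differed from receptor to receptor. For Slamf8 they were Nes, Rasgrp3 and Evl, at distances of 0.242 to 0.280. For Slamf9 they were Ifitm3, Bst2 and Lrrc75a, at 0.203 to 0.264. Ifitm3 and Bst2, which encode antiviral membrane proteins, had 634, 1167, 2644 and 1834 reads and 691, 872, 2715 and 1861 reads. Lrrc75a had 98, 135, 326 and 292 reads, and no shared function of these genes with Slamf9 was tested. Slamf7 lay nearest to Rasgef1b, Sypl and March1 (0.0209 to 0.0348), Cd84 to H13, Slc33a1 and Atp9b (0.00965 to 0.0226), Cd48 to Frmd4a, Sgta and Fbxo6 (0.00510 to 0.0213), and Ly9 to Rdh14, Fam53b and Map2k5 (0.0229 to 0.0233). With 4 libraries many genes share a pattern, and these are descriptions.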

How the data were processed

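Peritoneal macrophages were sequenced as 4 libraries, 1 per condition, grouped by the treatment label. The values deposited were raw counts, whole numbers of reads for each gene, beside a column of gene length in bases. The submitters' processing notes name HISAT2 2.0.5 and DESeq2. The methods name featureCounts for other libraries, and the strand setting is not given in the sources used here. Gene coordinates were those of GENCODE M21 for 53462 of 54409 shared genes. The 103 repeated symbols were replaced by identifiers. TMM factors (edgeR 4.0.16, R 4.3.3) scaled the libraries, and a prior count of 0.5 preceded log2 ratios. Intervals are Clopper-Pearson for the split of reads between 2 libraries, Poisson for levels, and normal for differences of log2 ratios. Intervals and floors cover counting error only, as the reads carry no molecular identifiers here. A gene with 3 reads or fewer got no fold. The computation was tested on simulated data.

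The receptors, gene lists and motifs were chosen with earlier results of these data known, and genes of like length were taken after seeing the ratios. Named genes are the receptors, the listed genes, those between the receptors on chromosome 1, and the 3 nearest protein-coding genes per receptor at a mean of at least 10 CPM. Alternatives were DESeq2 1.42.0 size factors, total counts, a prior count of 5, 2 other filters, protein-coding genes alone, raw shares and centering on genes of like length. Python 3.11.15 and matplotlib 3.10.9 were used.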

Additional observations from a re-analysis of the deposited data

Results flagged for a closer look

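Slamf9 moved in opposite directions with CH223191 in the 2 media. Its log2 ratio to DMSO was -0.39 in 4T1-CM, from 401 to 283 reads, and 0.60 in normal medium, from 105 to 159 reads. Cd48 did the same on a smaller scale, with -0.11 in 4T1-CM and 0.17 in normal medium, where the sign turned to -0.07 once genes of like length were subtracted. With 1 culture per condition, neither difference was tested.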

How the results depend on the processing

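The number of receptors at least 2-fold higher or lower was the same in all 4 comparisons under DESeq2 size factors, total counts, a prior count of 5, both other filters and protein-coding genes alone. Their 24 log2 ratios moved by at most 0.058, and the median of all genes by at most 0.054, both with total counts. That scaling took 2 ratios of Cd84 outside their narrow counting intervals, to -0.23 for 4T1-CM with DMSO and -0.05 for CH223191 in normal medium. Subtracting the median of genes of like length, an alternative chosen after seeing the data, reversed 2 ratios of Cd48, to 0.09 for 4T1-CM with CH223191 and -0.07 for CH223191 in normal medium; the cause was not tested. The ratio of Cd48 in 4T1-CM with DMSO, whose interval spans 0, also changed sign, from -0.09 to 0.17. Ly9 moved to -0.18 and -0.33 in 4T1-CM with DMSO and CH223191, and Cd84 to -0.28 in 4T1-CM with CH223191 and 0.06 for CH223191 in normal medium. It left Slamf8 at -2.69 and -2.89 and Slamf9 at 2.05 and 1.25 in 4T1-CM, so that Slamf9 also passed 2-fold with CH223191. By raw reads instead of reads per length, Cd84 made up 62.4% to 65.5% of the 6 receptors. The share of all genes past 2-fold depended on the filter. Without one, 21.1% were higher and 11.6% lower in 4T1-CM with DMSO, 19.9% and 13.7% with CH223191, and for CH223191 against DMSO 12.8% and 10.3% in normal medium and 11.7% and 12.4% in 4T1-CM. With at least 10 reads in every library, 7.25% and 7.38% were higher in 4T1-CM, and for CH223191 1.92% were higher and 0.756% lower in normal medium and 0.705% and 0.45% in 4T1-CM. A prior count of 5 gave 2.65%, 1.22%, 1.2% and 1.19% for those last 4, and protein-coding genes alone 3.06% and 2.17% in normal medium and 1.33% higher in 4T1-CM. No paired analysis was possible because each condition has 1 library, which also leaves the spread between cultures unknown; reads limit Slamf9 and Slamf8 most, at 105 and 167 in their lowest libraries.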
